A study of Mus musculus with 24 samples.

Results

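The genes of heterotrimeric G proteins and of the RGS proteins that switch them off were described in the mouse striatum. They were chosen by symbol in the platform annotation: Rgs followed by a digit, names starting with Gnai, Gnao, Gnas, Gnal, Gnaq, Gna1 or Gnaz, and Gnb or Gng followed by a digit. This gave 51 of the 19057 genes with 1 symbol on the array, each represented by its brightest probe. Of these, 48 had a mean log2 intensity above the filter on dim probes, at 7.05, and were tested. Gnai3 (6.85), Rgs13 (6.51) and Rgs18 (6.78) lay below it.

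The series holds 24 Illumina beadchip arrays of striatal RNA from C57BL/6J mice that were 6 to 10 weeks old. Every mouse had drunk morphine, an opioid agonist, or saccharin, the control sweetener, over a long period and was killed 4 h after 1 injection. The 4 groups of 6 arrays were morphine drinkers injected with morphine (20 mg/kg, intraperitoneal), morphine drinkers injected with saline (10 ml/kg), saccharin drinkers injected with morphine at the same dose, and saccharin drinkers injected with saline. Each of 6 chips held 1 array of each group. The labels do not say outright that each array is a separate animal. The p-values therefore rest on the variation among these 24 samples that remains after group and chip are fitted.

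A heterotrimeric G protein consists of an alpha subunit, which binds GTP, and a beta-gamma pair. An activated receptor loads the alpha subunit with GTP, and alpha and beta-gamma then act on enzymes and channels until the GTP is hydrolysed, a step that RGS proteins speed up. In the striatum, dopamine D1 receptors raise cyclic AMP through the stimulatory subunit encoded by Gnal, which pairs with the gamma subunit of Gng7. Opioid and dopamine D2 receptors lower it through the Gi and Go subunits. RGS9 is enriched in medium spiny neurons, the main cell type of the striatum, and is stabilised there by the beta subunit of Gnb5 and the anchor protein R7BP.

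Libraries were checked first, because 2 arrays of morphine drinkers, both on chip 2, stood apart. They are replicate 31 (morphine injection) and replicate 32 (saline injection). The mean of 16 tested marker genes of medium spiny neurons was 9.94 on replicate 31 and 10.07 on replicate 32, against 12.24 to 13.19 on the other 22 arrays, and all 16 were below every other array on both. The mean of 9 cortical excitatory neuron markers was 11.55 and 11.52, against 9.15 to 11.24 on the others, with Neurod2, Fezf2 and Nrn1 above every other array. Astrocyte markers averaged 12.96 and 13.06, against 12.29 to 12.76, with Gfap of 7 above every other array, and oligodendrocyte markers 12.91 and 13.11, against 13.09 to 13.69, with 4 of 8 below. Interneuron markers averaged 9.67 and 9.75, against 10.25 to 10.72, with Chat and Slc5a7 of 8 below every other array. No marker of microglia, endothelium, mural cells, blood, choroid plexus, or thalamus, septum and hypothalamus lay beyond the others on both. Raw median intensity was 326 and 430 on these arrays, inside the 164 to 543 of all 24. The part of these cell types in the results was not tested. In bulk RNA, fewer cells of a type and less RNA per cell cannot be told apart. Every comparison was therefore fitted with all 24 arrays and with 22. The labels name striatum as the tissue of all 24 arrays. On the other 22 the medium spiny neuron markers were at high levels, and the cortical marker mean varied from 9.15 to 11.24.

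Both arrays lay below all of the others for 10 of the 48 tested genes and above all of them for 4, while 4.34% and 4.26% of the 13748 genes tested did so. The arrays were known to stand apart beforehand, so these are descriptions with no test. Of the 48, 7 (14.6%) differed by at least 1 log2 unit between the mean of the 2 arrays and the mean of the 22, against 3.24% of all genes. The median difference was -0.17 over the 48 and 0.01 over all genes. In the authors' own log2 values, counted over all 51 genes, 10 were below, 4 above, and 4 (7.84%) differed by at least 1. The share of all genes was not computed for the authors' values. The plot of all 51 genes on the 2 arrays shows Rgs9 far to the left of the rest.

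**Figure D1:**
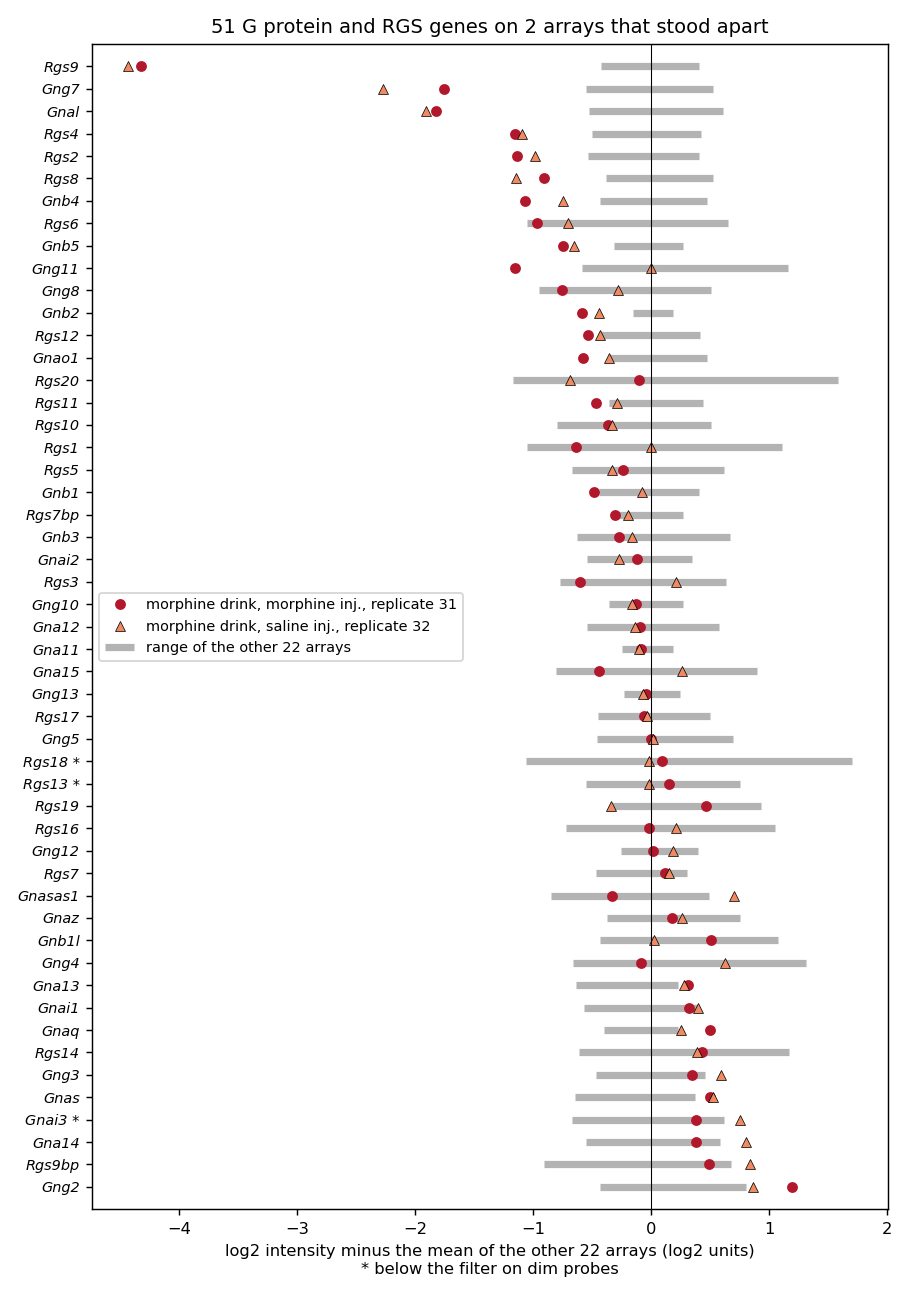
Level of the 51 G protein and RGS genes on replicate 31 (circles) and replicate 32 (triangles), in log2 units relative to the mean of the other 22 arrays, whose range is the grey bar. Rgs9, Gng7 and Gnal lie far below the bars (mean differences of -4.38, -2.01 and -1.87), and Gng2 lies above its bar (1.03).

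The promoters of Rgs9, Gng7 and Gng2 are shown because these genes lay furthest below (Rgs9, Gng7) or above (Gng2) the other arrays. The sequences run 5′ to 3′ from 250 bases before to 50 after the transcription start in RefSeq on GRCm38.p6, on the minus strand. Capitals mark the GC box GGGCGG, bound by Sp-family factors, and the TATA box TATAAA, each on either strand. The Rgs9 promoter is at chr11:109298132-109298431, the Gng7 promoter, at the most upstream of its listed starts, at chr10:81014876-81015175, and the Gng2 promoter at chr14:19976644-19976943.
Rgs9: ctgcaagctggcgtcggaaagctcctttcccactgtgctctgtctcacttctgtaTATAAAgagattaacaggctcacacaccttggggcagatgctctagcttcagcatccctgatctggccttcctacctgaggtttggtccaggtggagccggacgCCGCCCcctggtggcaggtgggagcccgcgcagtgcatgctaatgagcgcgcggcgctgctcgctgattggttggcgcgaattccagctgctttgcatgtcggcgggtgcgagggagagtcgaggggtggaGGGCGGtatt
Gng7: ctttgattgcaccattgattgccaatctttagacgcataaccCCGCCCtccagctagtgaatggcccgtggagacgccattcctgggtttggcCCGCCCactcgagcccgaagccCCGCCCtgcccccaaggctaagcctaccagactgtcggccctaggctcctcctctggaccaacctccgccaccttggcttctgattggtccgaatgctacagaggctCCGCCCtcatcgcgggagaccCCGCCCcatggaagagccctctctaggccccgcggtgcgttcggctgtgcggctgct
Gng2: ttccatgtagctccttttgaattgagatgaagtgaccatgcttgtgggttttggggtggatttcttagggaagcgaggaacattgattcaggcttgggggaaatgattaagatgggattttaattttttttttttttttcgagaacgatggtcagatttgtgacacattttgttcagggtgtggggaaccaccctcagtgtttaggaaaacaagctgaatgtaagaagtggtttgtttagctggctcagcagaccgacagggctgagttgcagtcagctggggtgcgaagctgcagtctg
The Rgs9 window held 2 GC box matches and 1 TATAAA, the Gng7 window 5 GC box matches and no TATAAA, and the Gng2 window neither. Position was not part of the match. The TATAAA of Rgs9 lies in the 5′ part of the window, far from the start, and 1 GC box match of Rgs9 lies after the start. Their GC content was 60.3%, 63.7% and 44.7%, against a median of 52.7% over 32851 listed mouse promoters of the same length. A GC box was present in 35.7% of these promoters. Of the 51 genes, 38 had a promoter in the count, and a GC box was in 22 of them (57.9%). A gene outside the 38 was left out of the count and may still have a listed promoter. TATAAA was present in 13.6% of all and in 5 of the 38 (13.2%). The cyclic AMP response half-site TGACG, searched on both strands, was in none of the 3 windows, in 20.8% of all promoters and in 8 of the 38 (21.1%). The shares over all promoters count every listed promoter, while those of the 38 count genes, and a gene can have more than a single listed start. The shares are therefore of unlike units, and no excess or lack in the 38 is read from them. These matches are letters in a window and say nothing of binding.

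The stimulatory alpha subunits parted on the 2 arrays. Gnal, the striatal Golf subunit, stood at 8.23 on replicate 31 and 8.15 on replicate 32, against 9.53 to 10.67 on the other 22, which is 3.65-fold lower. Its other 2 probes above the filter differed by -1.83 and -0.97. Gnas, the Gs subunit found in most cells, stood at 12.22 and 12.25, against 11.07 to 12.09, which is 1.43-fold higher. Of its 6 other probes, 5 were also higher on the 2 arrays, by 0.12 to 0.58, and 1 differed by -0.12.

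None of the 5 inhibitory alpha subunits was beyond the other arrays on both. Gnao1, the abundant neuronal Go subunit, came nearest from below, at 12.45 and 12.67 against 12.67 to 13.51. Gnai1 came nearest from above, at 11.78 and 11.86 against 10.89 to 11.85. Gnai2 (12.51 and 12.35), and Gnaz (12.36 and 12.45), whose product is slow to hydrolyse GTP, lay within the ranges of the 22 arrays, 12.08 to 12.97 and 11.82 to 12.94. Gnai3, too dim to test, stood at 7.19 and 7.56, against 6.14 to 7.42.

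Of the Gq and G12 alpha subunits, the first of which act through phospholipase C, 2 of 6 were above every other array. Gnaq stood at 12.96 and 12.71, against 12.05 to 12.69, and Gna13 at 11.84 and 11.81, against 10.89 to 11.75. The other Gnaq probes above the filter differed by 0.04, 0.61 and 0.26, and only the one at 0.61 was above every other array on both. The second Gna13 probe differed by 0.13 and lay within the range of the others. Gna11 (12.11 and 12.09) and Gna12 (8.86 and 8.82) were near the middle of 11.95 to 12.38 and of 8.40 to 9.53. The brain-poor subunits Gna14 (7.98 and 8.40, against 7.05 to 8.18) and Gna15 (7.03 and 7.73, against 6.66 to 8.37) overlapped the others.

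All 5 beta subunits had a lower mean on the 2 arrays, by -0.91 to -0.22, and 3 were below every other array. Gnb4 stood at 8.91 and 9.23, against 9.54 to 10.45. Its second probe was not below on both, at 8.59 and 7.43 against 7.44 to 9.33, a difference of -0.21. Gnb5, the partner of the R7 family of RGS proteins, stood at 12.76 and 12.86, against 13.19 to 13.78, which is 1.63-fold lower. The second Gnb5 probe was also below every other array on both, at 11.82 and 11.90 against 12.55 to 13.30, a difference of -1.02. Gnb2 stood at 12.40 and 12.54, against 12.83 to 13.18. Gnb1, the other widely expressed beta subunit, stood at 10.63 and 11.04, against 10.67 to 11.52, and Gnb3, known from cone photoreceptors, at 7.22 and 7.33, against 6.87 to 8.17. Gnb1l, which matches the rule by spelling but encodes a WD-repeat protein that is no G protein subunit, stood at 7.65 and 7.17, against 6.71 to 8.22.

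The gamma subunits held both extremes. Gng7 stood at 13.05 and 12.53, against 14.25 to 15.32, which is 4.04-fold lower. Its 3 other probes differed by -1.72, -1.16 and 0.28, the last from a probe near the filter. Gng2, a widely expressed neuronal gamma subunit, stood at 10.80 and 10.47, against 9.17 to 10.41, which is 2.04-fold higher, and its second probe differed by 1.02. Gng3 (9.85 and 10.09, against 9.03 to 9.96) and Gng4 (10.55 and 11.27, against 9.98 to 11.96) overlapped the other arrays. Gng11, a gamma subunit with a wide tissue distribution, was at 7.06 on replicate 31 and at 8.22 on replicate 32, against 7.63 to 9.37, so that the 2 arrays disagreed. Gng5, Gng8, Gng10, Gng12 and Gng13 all overlapped the others, with mean differences of -0.52 to 0.10.

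Of the R7 family, which acts on Gi and Go subunits in complex with the product of Gnb5, Rgs9 alone was below every other array on both. Rgs9 stood at 10.44 and 10.34, against 14.35 to 15.18, which is 20.8-fold lower and the largest difference of the 51 genes. Its second probe differed by -3.64. Rgs7 stood at 12.31 and 12.34, against 11.73 to 12.50, Rgs6 at 7.38 and 7.65, within the range of the others, and Rgs11, a retinal and neuronal member, at 10.41 and 10.58, against 10.52 to 11.31. The anchor gene Rgs7bp stood at 14.48 and 14.59, against 14.49 to 15.05, a mean difference of -0.25 beside the -4.38 of Rgs9. Its second probe was below every other array on both, at 10.11 and 10.10 against 10.18 to 11.17, a difference of -0.49. Rgs9bp, the anchor known from photoreceptors, stood at 7.88 and 8.23, against 6.48 to 8.07.

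Among the R4 family of small RGS proteins, 3 of 9 were below every other array. Rgs4, an abundant neuronal member that acts on Gi and Gq subunits, stood at 13.21 and 13.27, against 13.86 to 14.79, which is 2.18-fold lower. Rgs2, which prefers Gq, stood at 8.09 and 8.24, against 8.69 to 9.63, and its second probe differed by -0.62. Rgs8 stood at 11.01 and 10.77, against 11.53 to 12.44. Rgs5, known from pericytes, stood at 7.89 and 7.79, against 7.46 to 8.74, and Rgs16 at 8.50 and 8.73, against 7.80 to 9.57. Rgs1 and Rgs3 overlapped the others, as did Rgs13 and Rgs18, which were not tested.

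In the R12 family, Rgs12 was below every other array, at 10.19 and 10.29 against 10.30 to 11.15, but its second probe differed by 0.31. Rgs10, abundant in microglia as well as neurons, stood at 11.80 and 11.83, against 11.36 to 12.67, and Rgs14, known from hippocampal area CA2, at 9.22 and 9.18, against 8.18 to 9.96. The RZ members Rgs17, Rgs19 and Rgs20, which act on Gz and Gi subunits, all overlapped the others. Over the 20 genes with further probes above the filter, 28 of 35 such probes had the sign of the brightest probe.

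**Figure D2:**
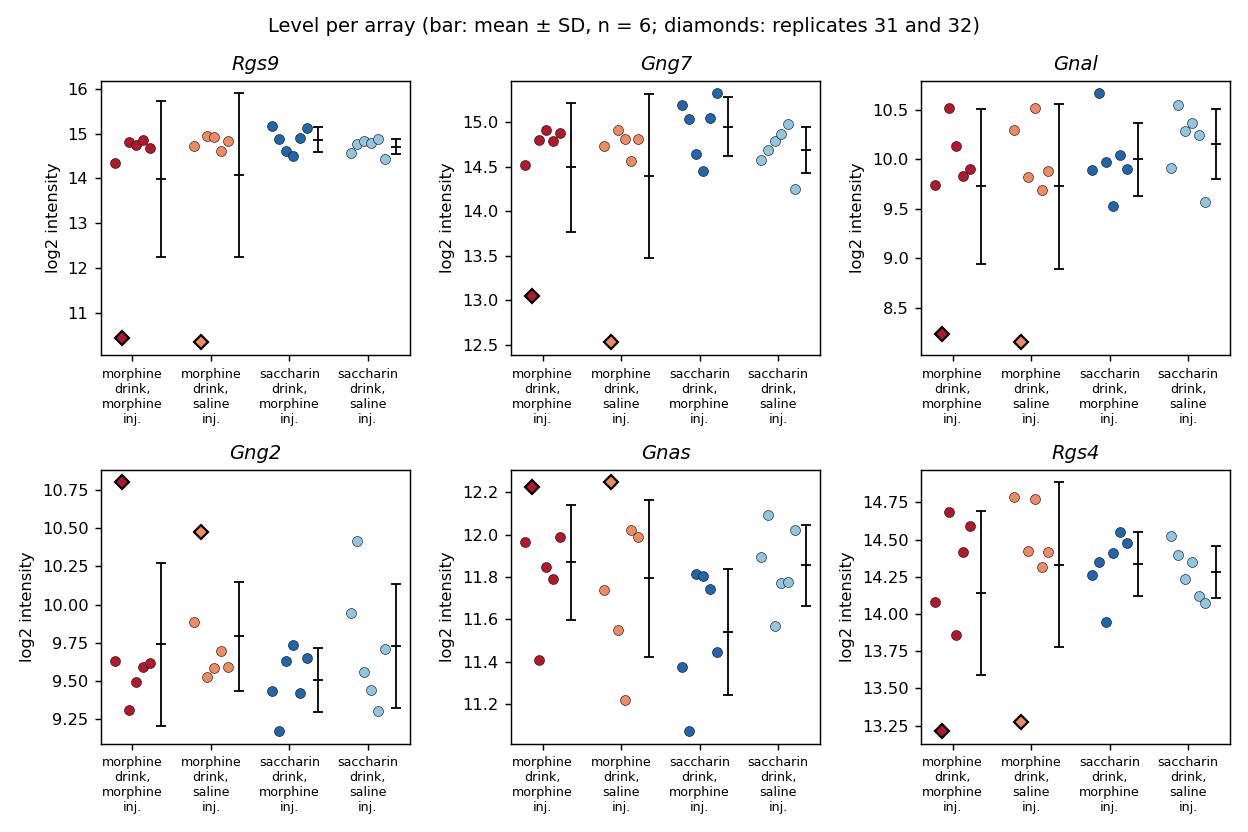
Log2 intensity of Rgs9, Gng7, Gnal, Gng2, Gnas and Rgs4 on each of the 24 arrays, by group, with the mean ± SD of 6 arrays beside the points. The diamonds are replicates 31 and 32, and without them the 4 groups overlap in every panel.

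The first comparison asked whether long-term morphine drinking changed these genes relative to saccharin drinking, averaged over the injections. None of the 48 tested genes passed an adjusted p of 0.05 by limma with 24 arrays or with 22, and 0% of the 13748 genes did. At an unadjusted p under 0.05, there were 3 of the 48 and 720 of all genes (5.24%) with 24 arrays, and 3 and 576 (4.19%) with 22. The median difference of the 48 was -0.07 with 24 arrays and -0.01 with 22, against 0.00 for all genes in both.

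The size of the estimate for the genes of striatal signalling depended on the 2 arrays. Rgs9 had a lowest, median and highest level of 10.44, 14.71 and 14.85 in morphine drinkers injected with morphine and 10.34, 14.78 and 14.96 in morphine drinkers injected with saline. It had 14.50, 14.89 and 15.18 in saccharin drinkers injected with morphine and 14.43, 14.78 and 14.88 in saccharin drinkers injected with saline. Apart from the 2 arrays, all levels lay between 14.35 and 15.18 and the groups overlapped. Its difference was -0.77 (SE 0.399, adjusted p = 0.903 by limma) with 24 arrays, and -0.03 (95% interval -0.25 to 0.19, adjusted p = 1) with 22. Its residual SD was 1.06 with 24 arrays and 0.238 with 22.

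Gng7 had 13.05, 14.80 and 14.92 in morphine drinkers injected with morphine, 12.53, 14.77 and 14.91 in morphine drinkers injected with saline, 14.46, 15.04 and 15.32 in saccharin drinkers injected with morphine, and 14.25, 14.74 and 14.98 in saccharin drinkers injected with saline. Leaving out the 2 arrays took its drink difference to -0.04 (interval -0.29 to 0.22), where 24 arrays gave -0.38 (SE 0.210, adjusted p = 0.903). Gnal had 8.23, 9.87 and 10.52 in morphine drinkers injected with morphine, 8.15, 9.85 and 10.52 in morphine drinkers injected with saline, 9.53, 9.94 and 10.67 in saccharin drinkers injected with morphine, and 9.57, 10.27 and 10.55 in saccharin drinkers injected with saline. For Gnal the difference was -0.35 (SE 0.246, adjusted p = 0.903) with 24 arrays and 0.06 (interval -0.21 to 0.34) with 22. The groups of both genes overlapped throughout once the 2 arrays were left out.

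For Rgs2, Rgs8, Gnb4, Rgs4 and Gnb5, also low on the 2 arrays, the estimate rose when these arrays were left out. For Rgs4 and Gnb5 it ended further from 0. The drink difference was -0.21 with 24 arrays and -0.03 with 22 for Rgs2, -0.16 and 0.05 for Rgs8, -0.17 and -0.05 for Gnb4, -0.07 and 0.14 for Rgs4, and -0.04 and 0.09 for Gnb5. For Gng2 and Gnas, which were high on them, it was 0.15 and 0.01, and 0.13 and 0.03. In all, 11 of the 48 differences turned sign when the 2 arrays were left out, and none of these passed in either fit. With 22 arrays the 95% interval of all 48 lay within 1 log2 unit of 0, a 2.0-fold change, and that of 44 within 0.5, a 1.41-fold change. With 24 arrays, Rgs9 alone reached past 1 (-1.60 to 0.07).

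**Figure D3:**
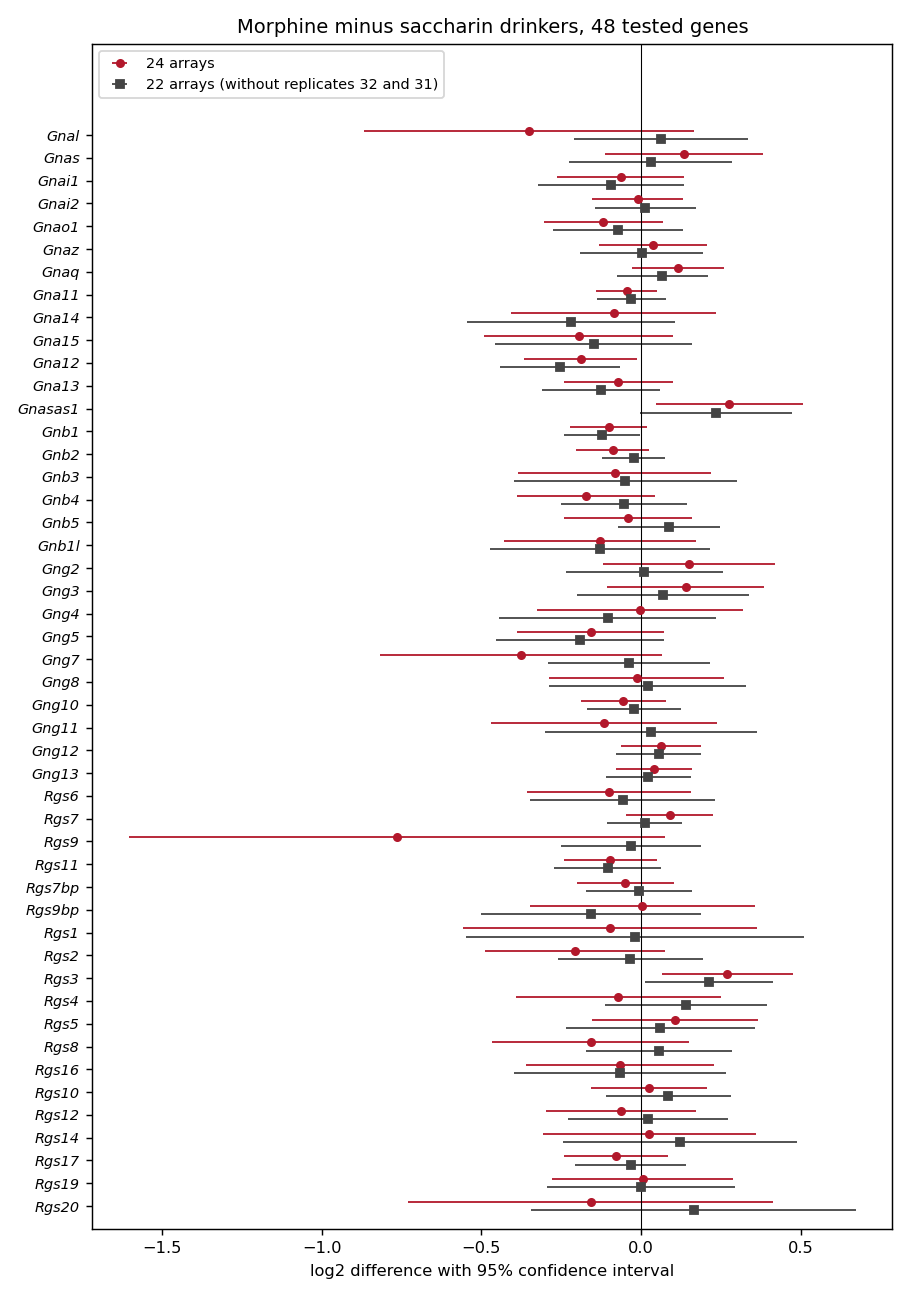
Log2 difference, morphine minus saccharin drinkers averaged over the injections, with its 95% confidence interval for the 48 tested genes, with 24 arrays (circles) and with 22 (squares). The intervals of Rgs9, Gng7 and Gnal shorten and centre near 0 without the 2 arrays, and no gene passes in either fit.

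Rgs3 and Gna12 were among the 3 smallest p-values for drinking in both fits, and neither passed. Rgs3, an R4 family member, had a lowest, median and highest level of 7.85, 8.55 and 9.06 in morphine drinkers injected with morphine and 8.40, 8.63 and 9.08 in morphine drinkers injected with saline. It had 7.67, 8.30 and 8.76 in saccharin drinkers injected with morphine and 7.73, 8.47 and 8.90 in saccharin drinkers injected with saline. Its difference was 0.27 (SE 0.0976, adjusted p = 0.903, above 0 on 6 of 6 chips) with 24 arrays and 0.21 (adjusted p = 1) with 22. All 4 groups overlapped, and the other 6 Rgs3 probes above the filter ranged from -0.52 to 0.34 in this difference.

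Gnasas1, an antisense transcript of the imprinted Gnas locus with its own probe, differed by 0.28 (SE 0.110, adjusted p = 0.903) with 24 arrays and 0.23 with 22. Gna12, a subunit of the G12 class, differed by -0.19 (SE 0.0843, adjusted p = 0.903, below 0 on 4 of 6 chips) with 24 arrays. With 22 it was at -0.25 (interval -0.44 to -0.07, adjusted p = 1, below 0 on 4 of 5 chips). Gnb1 took the place of Gnasas1 among the 3 smallest with 22 arrays, at -0.12 (below 0 on 5 of 5 chips, adjusted p = 1).

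The drink difference was also taken under each injection, and 0 of 48 and 0% of all genes passed under either by limma, with 24 or 22 arrays. At an unadjusted p under 0.05 there was 1 of 48 (2.08%) under saline and 1 under morphine with 24 arrays, against 4.58% and 5.5% of all genes. With 22 arrays there were 1 and 0, against 5.35% and 5.01% of all genes. Under saline the 3 smallest p-values with 24 arrays belonged to Gnasas1 (0.33), Rgs3 (0.29) and Rgs7 (0.18, above 0 on 6 of 6 chips), each with an adjusted p of 0.988. With 22 arrays they belonged to Gna12 (-0.28), Gna15 (-0.38) and Rgs1 (0.64), with adjusted p from 0.917 to 0.93. Under morphine they belonged to Rgs1 (-0.76), Gnas (0.33) and Gnaq (0.19), each with an adjusted p of 0.868, and with 22 arrays to Rgs1 (-0.68), Rgs3 (0.25) and Gng12 (0.16), each at 0.971. For Rgs9 the difference under saline was -0.65 with 24 arrays and 0.11 with 22, and under morphine -0.88 and -0.17.

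The second comparison asked whether the morphine injection changed these genes relative to saline. Averaged over the drinks, 0 of 48 passed by limma with 24 or 22 arrays, while 0.691% of all genes passed with 24 and 0.713% with 22. Unadjusted p-values under 0.05 were found for 3 of the 48 and 1140 of all genes (8.29%) with 24 arrays, and for 2 and 1259 (9.16%) with 22. The 95% interval of all 48 lay within 1 log2 unit of 0 in both fits, and that of 40 within 0.5 with 24 arrays and 41 with 22. The median difference of the 48 was -0.05 in both, against 0.00 for all genes.

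Gnasas1 had the smallest p of any gene in the set. Its lowest, median and highest level was 6.96, 7.21 and 7.59 in morphine drinkers injected with morphine, against 7.44, 7.63 and 7.99 in morphine drinkers injected with saline. It was 6.44, 7.02 and 7.44 in saccharin drinkers injected with morphine, against 7.12, 7.32 and 7.59 in saccharin drinkers injected with saline. The injected and saline groups overlapped in both kinds of drinkers. The averaged difference was -0.37 (SE 0.110, adjusted p = 0.187 by limma, below 0 on 5 of 6 chips) with 24 arrays and -0.31 (adjusted p = 0.336) with 22. The probe was dim, above the filter on 20 of 24 arrays, and Gnas itself, on the same locus, differed by -0.12 (interval -0.37 to 0.13, adjusted p = 0.866).

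Gng11 differed by -0.38 (SE 0.168, adjusted p = 0.564 by limma, below 0 on 4 of 6 chips) with 24 arrays. With 22 it was at -0.30 (adjusted p = 0.579, below 0 on 3 of 5 chips). Rgs3 differed by -0.21 (adjusted p = 0.582, below 0 on 6 of 6 chips) with 24 and -0.15 with 22. With 22 arrays Gnaq stood among the 3 smallest p-values, at -0.17 (interval -0.31 to -0.03, adjusted p = 0.398, below 0 on 5 of 5 chips). With 24 arrays Gnaq was at -0.14 (adjusted p = 0.618), and its 3 other probes at -0.02 to 0.03.

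With 22 arrays, the injection differences of the landmark genes did not pass. They follow from that fit only, some of them with their 95% intervals. Rgs9 differed by 0.02 (interval -0.19 to 0.23), Gnal by -0.09 (-0.35 to 0.18), Gng7 by 0.14 (-0.11 to 0.38), Gnb5 by 0.08 (-0.08 to 0.23) and Rgs7bp by -0.07 (-0.23 to 0.09). Of the Gi and Go subunits that opioid receptors use, Gnao1 differed by 0.04 (-0.16 to 0.23), Gnai1 by -0.18 (-0.40 to 0.04), Gnai2 by -0.07 (-0.22 to 0.08) and Gnaz by -0.04 (-0.22 to 0.14). Rgs4 differed by -0.08 (-0.33 to 0.16), Rgs2 by 0.15 (-0.07 to 0.37), Rgs8 by 0.16 (-0.06 to 0.38) and Rgs16 by 0.28 (-0.04 to 0.59). Gna11, Gna12 and Gna13 differed by 0.01, -0.05 and 0.01, and Gnb1 and Gnb4 by 0.00 and -0.14. Gng2, Gng3 and Gng4 differed by -0.18, -0.18 and -0.24, and Rgs5, Rgs10 and Rgs14 by -0.06, -0.10 and -0.07.

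For drinking, with 22 arrays, the same landmarks differed by -0.07 (interval -0.28 to 0.13) for Gnao1, -0.09 (-0.32 to 0.14) for Gnai1, 0.01 (-0.15 to 0.17) for Gnai2 and 0.00 (-0.19 to 0.19) for Gnaz. Gnaq was at 0.07, Gna11 at -0.03 and Gna13 at -0.13. Rgs7 was at 0.01, Rgs7bp at -0.01, Rgs5 at 0.06, Rgs10 at 0.09, Rgs14 at 0.12 and Rgs16 at -0.07. Gng3, Gng4 and Gng11 were at 0.07, -0.10 and 0.03. The intervals that are given leave room for changes of the size of their bounds, and a p above the threshold does not show that the groups were alike.

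The injection was also tested within each kind of drinker. In morphine drinkers 0 of 48 passed, against 0.0655% of all genes with 24 arrays and 0.0873% with 22. In saccharin drinkers 0 of 48 passed, against 0.371% with 24 and 0.436% with 22. At an unadjusted p under 0.05 there was 1 of 48 (2.08%, against 6.36% of all genes) in morphine drinkers and 2 (4.17%, against 7.69%) in saccharin drinkers with 24 arrays. With 22 there were 3 in each (6.25%), against 7.09% of all genes in morphine drinkers and 9.38% in saccharin drinkers. The median difference was -0.03 in morphine drinkers and -0.02 in saccharin drinkers with 24 arrays.

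In morphine drinkers the smallest p-values with 24 arrays belonged to Gnasas1 (-0.43, SE 0.155, adjusted p = 0.608), Rgs1 (-0.62, adjusted p = 0.809) and Rgs7 (-0.18, adjusted p = 0.832, below 0 on 6 of 6 chips). With 22 they belonged to Rgs7 (-0.21, adjusted p = 0.592), Rgs2 (0.34, adjusted p = 0.68) and Gng12 (0.19, adjusted p = 0.698), each in the same direction on 5 of 5 chips. The 5 remaining arrays of Rgs2 spanned 9.20 to 9.50 after the morphine injection, against 8.69 to 9.27 after saline, so these groups overlapped only between 9.20 and 9.27. In saccharin drinkers they belonged to Rgs1 (0.70, SE 0.309, adjusted p = 0.618), Gnaq (-0.21, adjusted p = 0.628) and Gnasas1 (-0.32, adjusted p = 0.659) with 24 arrays, and to the same 3 genes with 22 (adjusted p = 0.471 to 0.523).

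**Figure D4:**
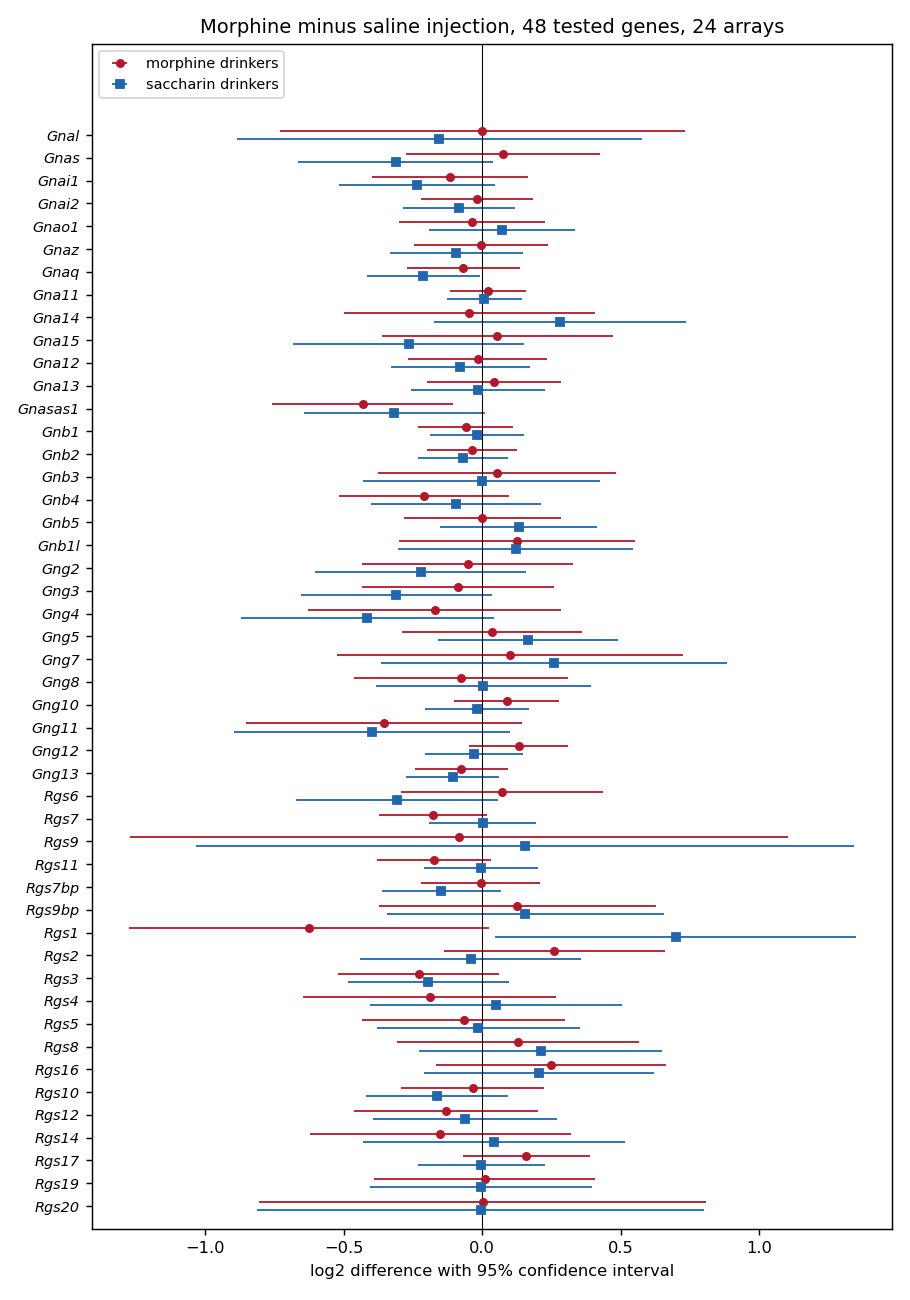
Log2 difference, morphine minus saline injection, with its 95% confidence interval for the 48 tested genes in morphine drinkers (circles) and in saccharin drinkers (squares), with 24 arrays. Rgs1 lies at -0.62 in morphine drinkers and at 0.70 in saccharin drinkers, and no gene passes in either.

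The interaction asked whether the effect of the injection differed between morphine and saccharin drinkers. None of the 48 passed with 24 or 22 arrays, and 0% of all genes did. At an unadjusted p under 0.05 there was 1 of the 48 and 721 of all genes (5.24%) with 24 arrays, and 1 and 933 (6.79%) with 22. That gene was Rgs1, an R4 family member known from lymphocytes and microglia. Its lowest, median and highest level was 6.64, 7.36 and 7.85 in morphine drinkers injected with morphine, against 6.77, 8.13 and 8.80 in morphine drinkers injected with saline. It was 7.49, 8.09 and 8.70 in saccharin drinkers injected with morphine, against 6.93, 7.30 and 8.07 in saccharin drinkers injected with saline. The interaction was -1.32 (SE 0.437, adjusted p = 0.939 by limma) with 24 arrays and -1.32 (adjusted p = 0.714) with 22. The probe was above the filter on 20 of 24 arrays, and the groups overlapped within both kinds of drinkers. The mean of 7 microglia markers ranged over 9.46 to 9.88 in morphine drinkers injected with morphine and 9.57 to 9.85 in morphine drinkers injected with saline, without the 2 arrays. It ranged over 9.49 to 9.72 and 9.32 to 9.82 in saccharin drinkers injected with morphine and with saline, and its part in the Rgs1 values was not tested.

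Gnas (0.39, adjusted p = 0.953) and Rgs6 (0.38, adjusted p = 0.958) had the next smallest p-values for the interaction with 24 arrays, and Rgs7 (-0.21, adjusted p = 0.75) and Rgs2 (0.38, adjusted p = 0.762) with 22. The moderated F test over the 4 groups also called 0 of 48, against 0.386% of all genes with 24 arrays and 0.371% with 22. Its smallest p-values in the set were those of Gnasas1 (adjusted p = 0.359), Rgs3 (0.61) and Rgs1 (0.729) with 24 arrays.

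**Figure D5:**
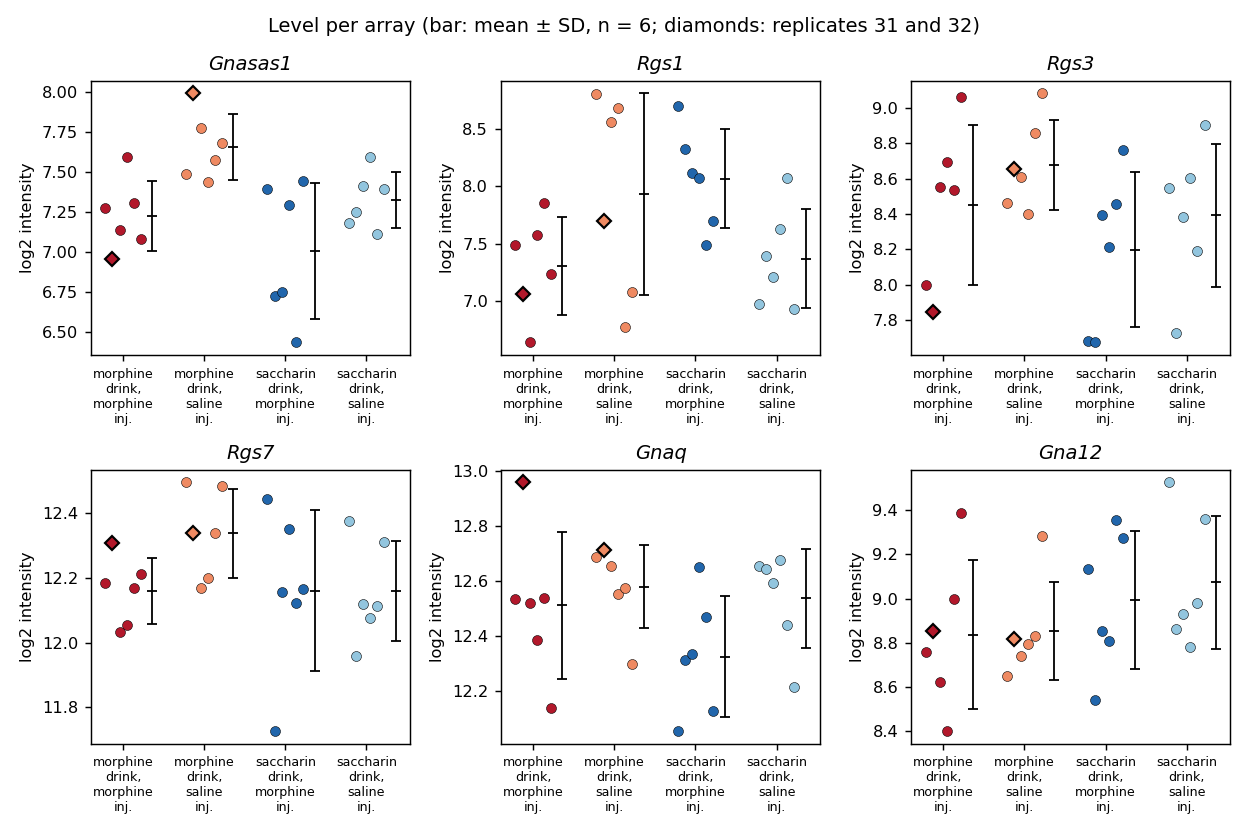
Log2 intensity on each of the 24 arrays of 6 genes with small p-values, by group, with the mean ± SD of 6 arrays beside the points and replicates 31 and 32 as diamonds. The groups overlap in every panel, and the 4 group means of Rgs1 cross, with 7.31 and 7.93 in morphine drinkers injected with morphine and with saline, and 8.07 and 7.37 in saccharin drinkers.

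The other genes of the pathway were read from 4 lists of receptors, receptor kinases and arrestins, other G protein regulators, and effectors. Of 49 on the array, 40 were tested. None of the 40 passed in any of the 7 comparisons with 24 or 22 arrays, while 0% to 0.713% of all genes did. The opioid receptor genes Oprm1 and Oprd1 and the cyclase gene Adcy5 were on the lists but not among the 40, so nothing is said of them here. On replicates 31 and 32, 6 of the 40 were below all of the other arrays and 2 above, while 4.34% and 4.26% of all genes tested were so. They were the receptor genes Drd1 (9.83 and 10.07, against 12.81 to 14.11), Drd2 (7.08 and 7.69, against 10.77 to 12.33) and Gpr6 (7.12 and 7.98, against 9.36 to 10.38), the arrestin gene Arrb1 (10.63 and 10.57, against 10.66 to 11.27), Ric8b, a chaperone of Gs-type alpha subunits (11.30 and 11.37, against 11.74 to 12.69), and Gpr158, an orphan receptor that binds R7 RGS proteins (13.17 and 13.38, against 13.82 to 14.27). Above all of the others were Adcy1, a calcium-stimulated adenylyl cyclase (13.14 and 12.46, against 10.72 to 11.97), and Kcnj6, a channel opened by beta-gamma (9.70 and 9.49, against 7.87 to 9.14). Drd1, Drd2 and Gpr6 are also among the 16 medium spiny neuron markers.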

How the data were processed

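Per the labels' protocols, RNA was extracted with Trizol, DNase-treated on RNeasy columns and labelled as biotin cRNA. The authors deposited linear probe intensity without normalization between arrays, and log2 values that lay within 0.0351 of quantile-normalized log2 intensity. The sources used here do not state whether the scanner had subtracted background, and detection p-values were not used.

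Intensities were corrected by normexp (offset 50), log2-transformed and then quantile-normalized with limma 3.58.1 (R 4.3.3). Of 45281 probes, 34885 had 1 gene symbol, 18 several and 10378 none listed. The probe with the highest mean of the authors' log2 values stood for each gene. Genes whose mean exceeded the 40th percentile of all probes were kept (13748) and fitted by lmFit and eBayes with group and chip as fixed terms. P-values are two-sided, Benjamini-Hochberg adjusted over the 13748 genes, with a threshold of 0.05. The fit was tested on simulated data.

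Named genes were all members by class, the 3 with the smallest p where fewer than 3 passed, and landmark genes. The members and lists were chosen with earlier results of these data known. The fit without replicates 31 and 32 was part of the rule that chose the genes, and other alternatives are given in the closing section. The number of arrays limits the precision (median SE of a difference between groups 0.142). Plots used matplotlib 3.10.9 (Python 3.11.15).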

Additional observations from a re-analysis of the deposited data

Results flagged for a closer look

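A gap of 1 array to the nearest other of its group, relative to the group's whole range, was examined for 32 named genes in 4 groups of 6, and 18 of 128 (14.1%) passed Dixon's 95% critical value. Of the 18, 12 were on replicates 31 and 32 of the morphine drinkers, which were known to stand apart, so these 12 are descriptions and are not to be read against chance. On replicate 31 (morphine injection), low levels were flagged for Rgs9 (gap 0.885 of the range, 10.44 against 14.35 for the next array), Gng7 (0.79), Rgs2 (0.788), Gnb4 (0.723) and Gnal (0.657), and a high level for Gng2 (0.788, 10.80 against 9.63). On replicate 32 (saline injection), low levels were found for Rgs9 (0.925, 10.34 against 14.61), Gng7 (0.855), Gnb4 (0.72), Rgs4 (0.688), Gnb5 (0.686) and Gnal (0.651).

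The other 6 of the 128 were on 4 arrays. Genes on the same array are not independent, so this number is not to be read against chance either. Replicate 41 of the morphine drinkers injected with saline was high for Gna12 (0.717, 9.28 against 8.83). Replicate 4 of the saccharin drinkers injected with morphine was high for Gng3 (0.704, 9.92 against 9.32), and replicate 3 of the saccharin drinkers injected with saline was high for Gng4 (0.813, 11.96 against 10.80). Replicate 8 of the saccharin drinkers injected with saline was low for Gnai2 (0.666, 12.08 against 12.67) and Rgs10 (0.666, 11.36 against 12.19), and high for Gnaz (0.691, 12.94 against 12.21). On replicate 8 the mean of the medium spiny neuron markers was 12.24, the lowest of the 22 arrays, that of the cortical markers 11.24, the highest, and that of the microglia markers 9.32, the lowest. Their part in these values was not tested.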

How the results depend on the processing

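The number of the 48 genes called stayed at 0 in all 7 comparisons under each of 44 settings. Over 102 differences of 32 named genes there were 4389 recomputed values: 212 turned sign, 227 moved by more than the spread between replicates or turned sign, 0 newly passed, and the smallest adjusted p was 0.0831. The background counts of all genes moved more, and the cause was not tested. For the injection in saccharin drinkers, 51 genes were called, against 9 with arrays scaled to a common median (which moved the median of all genes to -0.09), 28 with no chip term, 30 with chip position added, 10 with only those groups fitted, and 16, 27, 15, 12 and 15 without chips 1, 3, 4, 5 and 6. In morphine drinkers it was 9, against 18 with a trended and robust prior, 63 with array weights, 2 with only those groups fitted and 5 without chip 1. Averaged over drinks it was 95, against 26 with a common median, 57 with no chip term, 169 with array weights, and 50, 46 and 56 without chips 1, 5 and 6. For drinking under morphine it was 0, against 1 without chip 3. Leaving out 1 array at a time gave 23 to 51, 7 to 13, 75 to 104 and 0 to 1 for these 4 comparisons and 0 to 0 for the others. Replicate numbers differ between the groups and pair no samples, and the chip, which holds 1 array of each group, is the block in the fit. The number of arrays and dim probes limit what could be detected.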
